A study of Mus musculus with 4 samples.

Results

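The GATA switch genes are 10 transcription regulators of early blood and red cell formation: the GATA factors Gata1, Gata2 and Gata3, the GATA cofactor Zfpm1, the core complex genes Tal1, Lyl1, Lmo2 and Ldb1, and the erythroid factors Klf1 and Gfi1b. Their members were all probe sets that the array annotation assigns to exactly 1 of these genes, which gave 12 of the 45037 probe sets tested and 10 of 18193 annotated genes. Gata2 and Zfpm1 had 2 probe sets each and the other 8 genes had 1.

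Affymetrix mouse arrays measured transcripts in LSK cells, marrow cells that lack lineage markers and carry c-Kit and Sca1 and that include stem cells and multipotent progenitors. Cells of the Hi group were sorted for much c-Myc-eGFP, a fusion of c-Myc with a fluorescent protein, and those of the Lo group for little of it, with 2 arrays each. Both groups came from the femurs of mice labelled wild type on a B6/129 background, and both carried the fusion; the age of the mice was not given in the sources used here. Nothing in the labels says whether the arrays came from separate mice or pools, so the p-values measure only the spread between these arrays, which may be technical.

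The GATA factors bind the same short DNA motif, and the name GATA switch refers to the replacement of the GATA2 protein by GATA1 at shared sites as progenitors enter the erythroid lineage. There GATA1, helped by the cofactor FOG1 (the product of Zfpm1), lowers Gata2 transcription and raises that of red cell genes. TAL1 or its close relative LYL1, with an E protein, joins a GATA factor through the bridging proteins LMO2 and LDB1. KLF1 activates globin and red cell membrane genes, GFI1B is a repressor needed for red cells and platelets, and GATA3 is best known from T cells and innate lymphoid cells.

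RefSeq promoter windows of GRCm38.p6, from 250 bases before to 50 bases after an annotated start, were found for 9 of the 10 genes, 13 windows in all. Those of the members that differed most between Hi and Lo, and of Gata2 and Gfi1b, are given here 5′ to 3′ because they carry, or lack, the letters that GATA factors are known to bind. Capitals mark a GATA hexamer on either strand, which is GATA with A or T before it and A or G after it, and, where present, a CTG placed 7 or 8 bases before a hexamer that ends in A, a spacing close to that known from joint binding of TAL1 and GATA1. The windows are chrX:7967861-7968160 on the minus strand for Gata1, chr8:84901732-84902031 on the plus strand for Klf1, chr2:28621933-28622232 on the minus strand for Gfi1b, chr6:88193641-88193940 and chr6:88198414-88198713 on the plus strand for Gata2, and chr2:9878551-9878850 on the minus strand for Gata3.
Gata1: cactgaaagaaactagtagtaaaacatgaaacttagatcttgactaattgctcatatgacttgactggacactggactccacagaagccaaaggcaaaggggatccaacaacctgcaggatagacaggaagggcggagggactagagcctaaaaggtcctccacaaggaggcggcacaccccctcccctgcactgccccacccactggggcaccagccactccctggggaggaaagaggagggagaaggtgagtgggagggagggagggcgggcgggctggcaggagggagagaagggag
Klf1: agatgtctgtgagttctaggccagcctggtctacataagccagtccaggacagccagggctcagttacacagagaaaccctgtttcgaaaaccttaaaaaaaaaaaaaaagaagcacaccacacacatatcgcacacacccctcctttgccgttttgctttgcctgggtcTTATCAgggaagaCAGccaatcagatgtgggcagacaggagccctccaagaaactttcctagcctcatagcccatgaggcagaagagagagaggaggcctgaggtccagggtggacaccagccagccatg
Gfi1b: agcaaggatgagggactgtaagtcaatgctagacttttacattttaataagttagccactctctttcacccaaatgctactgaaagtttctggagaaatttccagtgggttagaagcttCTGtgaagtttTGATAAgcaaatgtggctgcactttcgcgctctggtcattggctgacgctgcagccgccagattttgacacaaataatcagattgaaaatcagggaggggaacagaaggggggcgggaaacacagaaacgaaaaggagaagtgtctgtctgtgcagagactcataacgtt
Gata2, upstream start: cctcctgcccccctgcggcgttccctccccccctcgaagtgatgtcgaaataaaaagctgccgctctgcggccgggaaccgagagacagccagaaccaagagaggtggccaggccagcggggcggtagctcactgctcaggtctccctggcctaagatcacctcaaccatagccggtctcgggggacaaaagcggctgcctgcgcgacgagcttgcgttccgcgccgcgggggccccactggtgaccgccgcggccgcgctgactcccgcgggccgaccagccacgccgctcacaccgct
Gata2, downstream start: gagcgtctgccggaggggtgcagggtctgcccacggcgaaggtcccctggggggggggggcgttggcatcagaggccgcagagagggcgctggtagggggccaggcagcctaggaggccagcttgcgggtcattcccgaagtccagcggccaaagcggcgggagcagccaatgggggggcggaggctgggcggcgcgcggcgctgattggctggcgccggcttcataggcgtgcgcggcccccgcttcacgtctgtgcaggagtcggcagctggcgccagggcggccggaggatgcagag
Gata3: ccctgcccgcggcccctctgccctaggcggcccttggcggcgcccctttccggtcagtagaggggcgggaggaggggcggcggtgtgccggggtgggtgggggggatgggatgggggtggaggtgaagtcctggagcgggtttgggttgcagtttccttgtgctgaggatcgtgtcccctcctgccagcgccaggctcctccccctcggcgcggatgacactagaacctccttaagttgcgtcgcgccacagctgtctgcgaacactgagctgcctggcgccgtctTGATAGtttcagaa

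A GATA hexamer was present in 5 of the 13 windows, against 29.8% of all 32851 windows of that length. The Klf1 match began 80 bases before the start, the Gfi1b match 120 bases before it and the Gata3 match 36 bases after it, while the windows of Gata1 and Gata2 held none. A Tal1 window, not printed here, held a match 205 bases before its start. An Ldb1 window, also not printed, held 2, the first 240 bases before its start. The CTG element, which contains a GATA hexamer, was found in 2 of the 13 windows, those of Klf1 and Gfi1b, against 0.971% of all windows. The letters CCNCNCCC on either strand, which include the CACCC box that Klf proteins bind, were in 11 of the 13 windows, against 49.5% of all windows. They also fit other C-rich stretches. The E-box letters CAGCTG or CAGATG, on either strand, were in 4 of the 13 windows, against 30.6% of all windows. A match describes these letters only, and occupancy was not measured here.

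Over the whole array limma called 0 of 45037 probe sets higher and 0 lower in Hi at an adjusted p under 0.05 (0% each), with a smallest adjusted p of 0.0839. At an unadjusted p under 0.05, 9.05% were higher and 8.91% lower. Shifting the arrays to 1 median moved that split to 5692 higher and 3273 lower, against 4075 and 4015, and the counts were 2091 and 2320 without Hi replicate 1 and 2370 and 2558 without Hi replicate 2. Of the 12 member probe sets 0 were called at an adjusted p under 0.05. At an unadjusted p under 0.05, 2 were higher (Gata1 and Klf1) and 4 lower (both of Gata2, Gata3 and the brighter of Zfpm1); the count of lower ones was 1 without Hi replicate 1 and 2 without Hi replicate 2. Without overlap of the groups, Hi was the higher in 3 member probe sets, where 29.3% of all probe sets were so placed, and the lower in 7, where 22.0% were. The median difference over the member probe sets was -0.30 on the log2 scale, against 0.04 over all probe sets.

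The Myc transcript had log2 intensities of 12.41 and 12.41 in Hi and 11.70 and 10.64 in Lo. The gate gene Kit was bright on all arrays, at 11.39 and 11.58 in Hi and 11.95 and 11.55 in Lo, and Ly6a, which encodes Sca1, was not analysed here. A probe set counted as dim below a limit of 4.74 to 4.87. Of the 4 lineage genes analysed, Cd3e and Itgam lay between 4.79 and 5.73, near that limit, while Cd4 had 8.49 and 8.25 in Hi and 7.94 and 8.09 in Lo. Cd8a had 5.62 and 5.44 in Hi and 6.88 and 6.55 in Lo, a difference of -1.19 (limma adjusted p = 0.108). The signal of the Gapdh control, 3′ minus 5′ on the log2 scale, stood at 0.63 and 0.65 in Hi, against 0.74 and 0.78 in Lo without overlap. The same measure of Actb stood at 0.60 and 0.55 in Hi, against 0.84 and 0.57 in Lo, with overlap, and the part of RNA quality in the results was not tested.

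**Figure D1:**
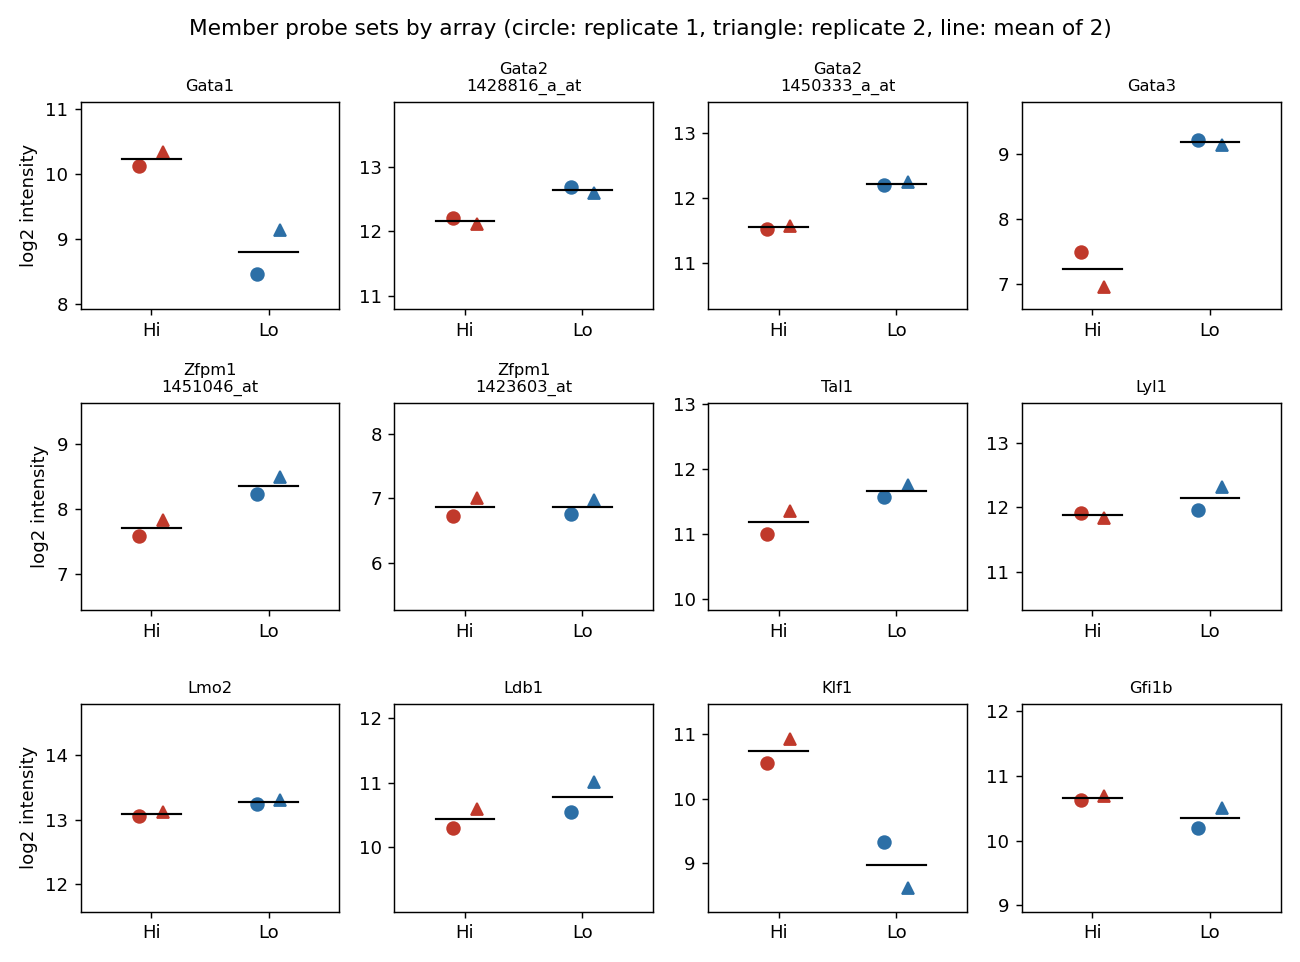
Log2 intensity of each member probe set on the 4 arrays, Hi in red left of Lo in blue, with a line at the mean of 2 arrays; every panel spans the same log2 range around its own centre. Gata1 and Klf1 sit higher in Hi, Gata3 and both Gata2 probe sets lower, and the arrays of the second Zfpm1 probe set overlap.

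Gata1, the master regulator of red cells, platelets and mast cells (chromosome X, 7959260 to 7976663 in GRCm38.p6), had log2 intensities of 10.12 and 10.34 in Hi and 8.45 and 9.14 in Lo. The groups did not overlap, with a gap of 0.98 between the nearest ones. The difference was 1.43 ± 0.29 (SE), or 2.70-fold, with a limma adjusted p of 0.139. Only 1.53% of all probe sets had a larger positive difference. The 2 Lo arrays were far apart for this gene (SD 0.48, against 0.16 in Hi), and the difference was 1.09 without Lo replicate 1.

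Gata2, which maintains stem and progenitor cells (chromosome 6, 88193891 to 88207032), was among the bright genes. Its brighter probe set had 12.21 and 12.11 in Hi and 12.68 and 12.59 in Lo. The other had 11.52 and 11.58 in Hi and 12.20 and 12.25 in Lo. Both probe sets were lower in Hi without overlap, and the arrays of a group differed little from each other, with an SD of at most 0.07. The differences were -0.47 ± 0.14 (SE; limma adjusted p = 0.215) and -0.67 ± 0.13 (SE; limma adjusted p = 0.136), which are 1.39-fold and 1.59-fold. Gata2 thus had higher signal in Lo, but 15.3% of all probe sets had a more negative difference than its brighter probe set.

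Gata3 (chromosome 2, 9857078 to 9887953) had the most negative difference of the 10 genes. Its log2 intensities were 7.50 and 6.96 in Hi and 9.23 and 9.15 in Lo. All 4 values were above the dim limit, and the groups were 1.65 apart at their nearest arrays. The difference was -1.96 ± 0.23 (SE), or 3.89-fold lower in Hi, with a limma adjusted p of 0.0947, and 0.844% of all probe sets had a more negative one. Fitted over gene means, limma gave Gata3 an adjusted p of 0.0371, in a table of 18193 genes of which 1.39% were called higher and 1.52% lower, and over 1 probe set per gene 0.0486, with 1.04% and 1.18% called; its single probe set has the same values in all these fits.

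The Gata1 to Gata2 balance was compared within each array. The log2 intensity of Gata1 minus that of the brighter Gata2 probe set came to -2.09 and -1.78 in Hi, against -4.23 and -3.45 in Lo. Since each probe set has its own brightness, these values do not give the ratio of the transcripts. A constant brightness cancels in their difference between groups, but that difference can still vary with the probe set used. It was 1.91 with the brighter Gata2 probe set, without overlap of the groups, and 2.01 with the mean of both Gata2 probe sets. The exact two-sided permutation test gave p = 0.333, the smallest that 2 arrays against 2 allow. Leaving out single arrays, the difference lay between 1.52 without Lo replicate 1 and 2.29 without Lo replicate 2.

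**Figure D2:**
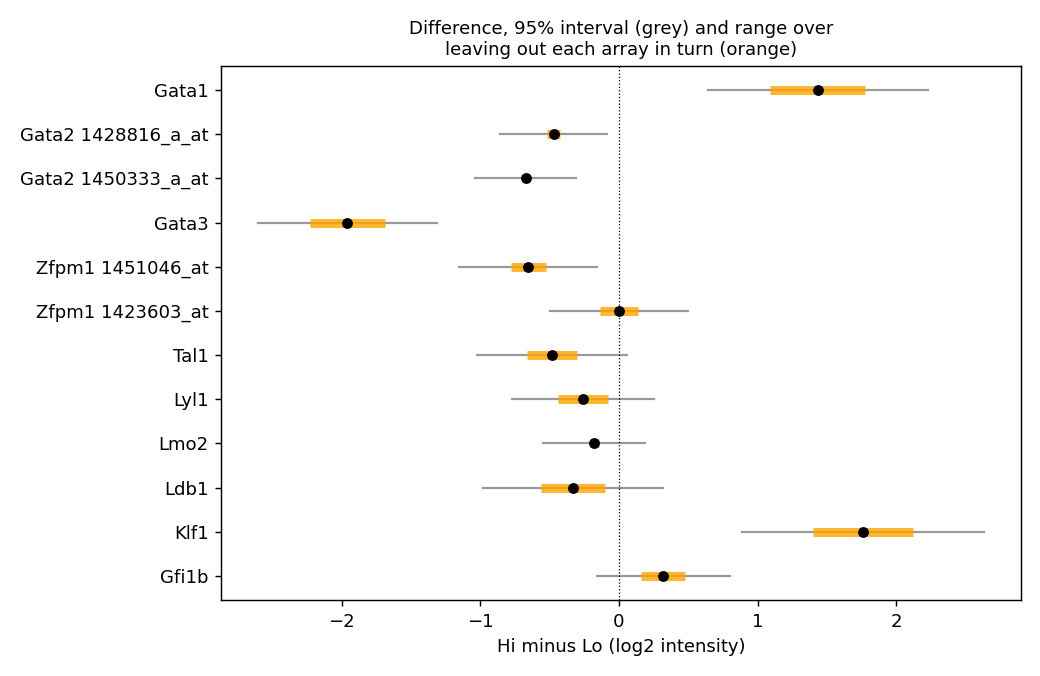
Hi minus Lo difference in log2 intensity for each member probe set (black point) with its 95% interval from limma (grey) and the range over leaving out each array in turn (orange). The intervals of Gata1 and Klf1 lie above 0, those of Gata3, both Gata2 probe sets and the brighter Zfpm1 probe set lie below 0, and the others include 0.

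Zfpm1, which encodes the cofactor FOG1 (chromosome 8, 122281856 to 122337862), gave different values by probe set. The brighter one had 7.59 and 7.83 in Hi and 8.23 and 8.49 in Lo, a difference of -0.65 ± 0.18 (SE; limma adjusted p = 0.199) without overlap. The other had 6.73 and 7.01 in Hi and 6.76 and 6.98 in Lo. Its difference was -2.8e-05 ± 0.18 (SE), with a 95% interval from -0.50 to 0.50. Both probe sets are annotated to the same transcript record, and with their mean the gene's difference was -0.33, so the lower level in Hi rests on 1 of 2 probe sets.

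The 4 core complex genes all had lower means in Hi, by small amounts. Tal1 (chromosome 4, 115056426 to 115071755), a helix-loop-helix factor required for all blood lineages, had 11.00 and 11.36 in Hi and 11.57 and 11.76 in Lo. Its relative Lyl1 (chromosome 8, 84701423 to 84704716) had 11.92 and 11.84 in Hi and 11.96 and 12.32 in Lo. The groups did not overlap for either gene, but the nearest arrays of Lyl1 were only 0.04 apart. The bridging factor gene Lmo2 (chromosome 2, 103957903 to 103981878) had 13.06 and 13.12 in Hi and 13.24 and 13.30 in Lo. Ldb1 (chromosome 19, 46031525 to 46048145), whose protein brings distant regulatory elements together, had 10.29 and 10.59 in Hi and 10.55 and 11.00 in Lo, and its groups overlapped. The differences were -0.48 ± 0.19 for Tal1, -0.26 ± 0.18 for Lyl1, -0.18 ± 0.13 for Lmo2 and -0.33 ± 0.23 for Ldb1 (SE), with limma adjusted p-values from 0.314 to 0.548. All 4 95% intervals include 0; that of Lmo2 runs from -0.55 to 0.19 and that of Tal1 from -1.02 to 0.06. Without Lo replicate 2 the differences of Lyl1 and Ldb1 were -0.08 and -0.10.

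Klf1, the erythroid Krüppel-like factor (chromosome 8, 84901982 to 84905291), had the largest positive difference of the 10 genes. Its log2 intensities were 10.55 and 10.92 in Hi and 9.33 and 8.62 in Lo. The difference was 1.76 ± 0.31 (SE), or 3.38-fold (limma adjusted p = 0.123), and 0.742% of all probe sets had a larger one. The nearest arrays of the groups were 1.21 apart. Gfi1b (chromosome 2, 28609450 to 28621982) had 10.63 and 10.69 in Hi and 10.19 and 10.50 in Lo. Its groups did not overlap either, but the difference of 0.32 ± 0.17 (SE; limma adjusted p = 0.424) had a 95% interval from -0.16 to 0.80. Leaving out Lo replicate 1 gave 0.16 and leaving out Lo replicate 2 gave 0.48, where Gfi1b reached an unadjusted p under 0.05. The promoter windows of both genes are those that held the CTG element, and a relation of the element to these differences was not tested.

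**Figure D3:**
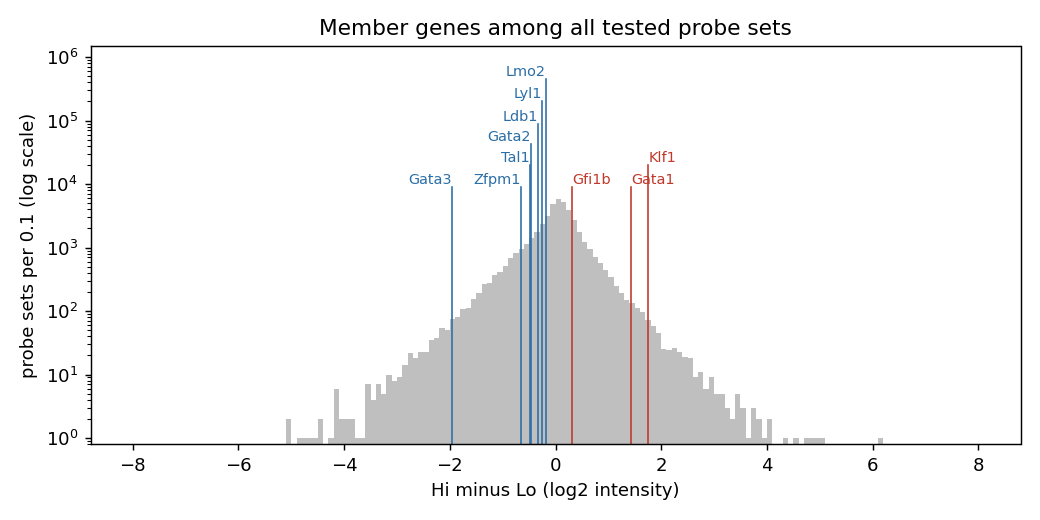
Number of tested probe sets by Hi minus Lo difference in log2 intensity (grey, log scale), with the 10 member genes at the difference of their brighter or single probe set. Gata3, Gata1 and Klf1 lie in the outer parts of the distribution, and the other 7 genes lie between -0.65 and 0.32.

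Gata1 and Klf1, both higher in Hi, differed in how they varied between the Lo arrays. Gata1 was higher on Lo replicate 2 than on Lo replicate 1 by 0.68, whereas Klf1 had a difference of -0.71 between the same arrays. Myc had the same order as Klf1 there, with the lower value on Lo replicate 2. On the Hi arrays Gata1 and Klf1 had the same order, 0.22 and 0.38 higher on Hi replicate 2. Leaving out Lo replicate 2 therefore changed the differences in opposite ways, to 1.78 for Gata1 and 1.40 for Klf1, and leaving out Lo replicate 1 gave 1.09 and 2.12.

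**Figure D4:**
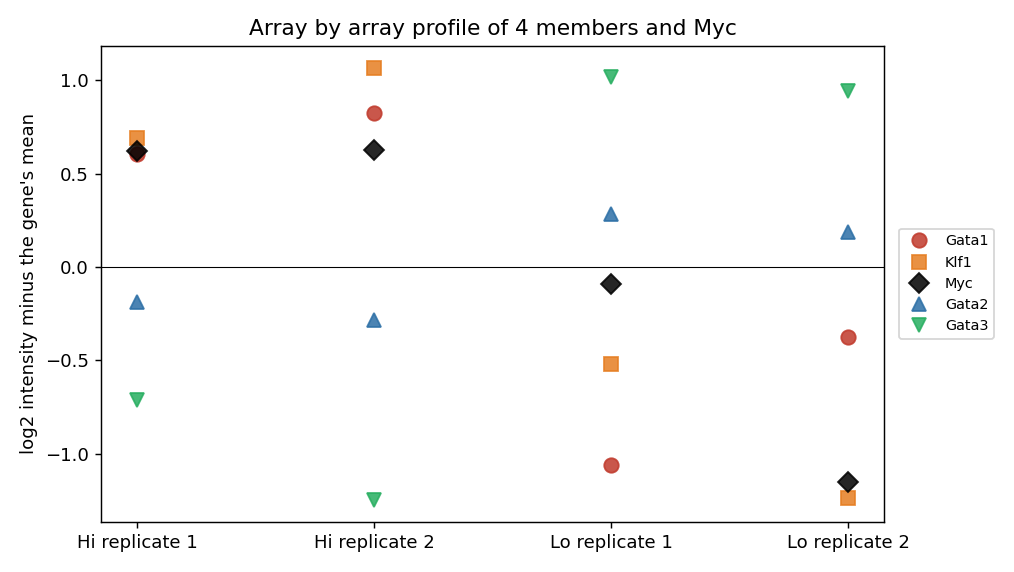
Log2 intensity of Gata1, Klf1, Gata2 and Gata3 and of Myc on each array after subtraction of each gene's mean over the 4 arrays. Gata1 and Klf1 are above their means on both Hi arrays and change places on the Lo arrays, where Klf1 and Myc are lower on replicate 2 and Gata1 is lower on replicate 1.

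By distance between mean-centred log2 values on the 4 arrays, the genes most like Gata1 among the 18193 were Spdl1 (distance 0.05), Slc27a2 (0.08) and 1700001L05Rik (0.09). Most like Gata2 were Ccdc84 (0.02), Lemd2 (0.03) and Aldh5a1 (0.03). Most like Klf1 were Dsn1 (0.23), Ttyh2 (0.25) and Zmynd19 (0.25), all 3 with a lower value on Lo replicate 2 than on Lo replicate 1. The nearest distances were larger for Klf1 than for Gata1 and Gata2. They were not scaled by the size of each gene's differences, so they do not compare how distinct the profiles are. With 4 arrays the ranking is a description only.

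Genes known as erythroid targets of these factors were mostly higher in Hi. Of 38 listed genes 33 were analysed, and without overlap of the groups Hi was the higher in 23 (30.0% of all genes) and the lower in 3 (25.4%). At an unadjusted p under 0.05, 17 were higher and 0 lower, where 9.25% of all genes were higher and 11.0% lower; 0 passed an adjusted p of 0.05 by limma. With single arrays left out 13 to 17 were higher and 0 to 1 lower, and Epb42, dim on all arrays, is among the higher genes. The median difference was 0.85, against 0.03 over all genes. Among targets without overlap the largest positive differences were those of Ermap, a membrane protein of red cell precursors, at 4.92 ± 0.64, and the blood group gene Rhd at 3.78 ± 0.42 (SE; limma adjusted p = 0.0962 and 0.0946). Rhag, which encodes the partner of the Rh proteins, had 3.10 ± 0.20 (SE; limma adjusted p = 0.0839), and for the blood group gene Kel, dim on both Lo arrays, the Hi level exceeded the Lo limit at least 6.35-fold.

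Some genes of late red cell precursors were dim or overlapped between the groups, and others were higher in Hi. Alas2, the red cell enzyme that starts haem synthesis, and Epb42, a membrane skeleton gene, were dim on all 4 arrays. The anion exchanger gene Slc4a1 had 7.36 and 6.95 in Hi and 6.85 and 7.77 in Lo, with overlap. The other membrane skeleton genes analysed from the list were higher in Hi without overlap. Ank1 had a difference of 2.66 ± 0.20, Add2 of 1.72 ± 0.19, Sptb of 1.44 ± 0.38 and Dmtn of 0.38 ± 0.20 (SE; limma adjusted p from 0.0839 to 0.409). The targets lower in Hi without overlap were Tfr2 at -0.44 ± 0.16, Gypc at -0.34 ± 0.16 and Car2 at -0.11 ± 0.13 (SE), and none passed the test. The summed linear intensity of the 33 targets came to 52606 and 61425 in Hi, against 33685 and 36321 in Lo. Of the 31 targets not dim on all arrays, 28 were higher on Hi replicate 2 than on Hi replicate 1, the array with the higher Gata1 and Klf1, where 50.9% of all probe sets were. On the Lo arrays, 20 of the 31 were higher on Lo replicate 2, where 52.4% of all probe sets were. That array had the higher Gata1 and the lower Klf1. Both shares of all probe sets include dim ones, and whether the targets followed either factor was not tested. In such bulk samples, more cells with erythroid transcripts and more of these transcripts per cell cannot be told apart.

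**Figure D5:**
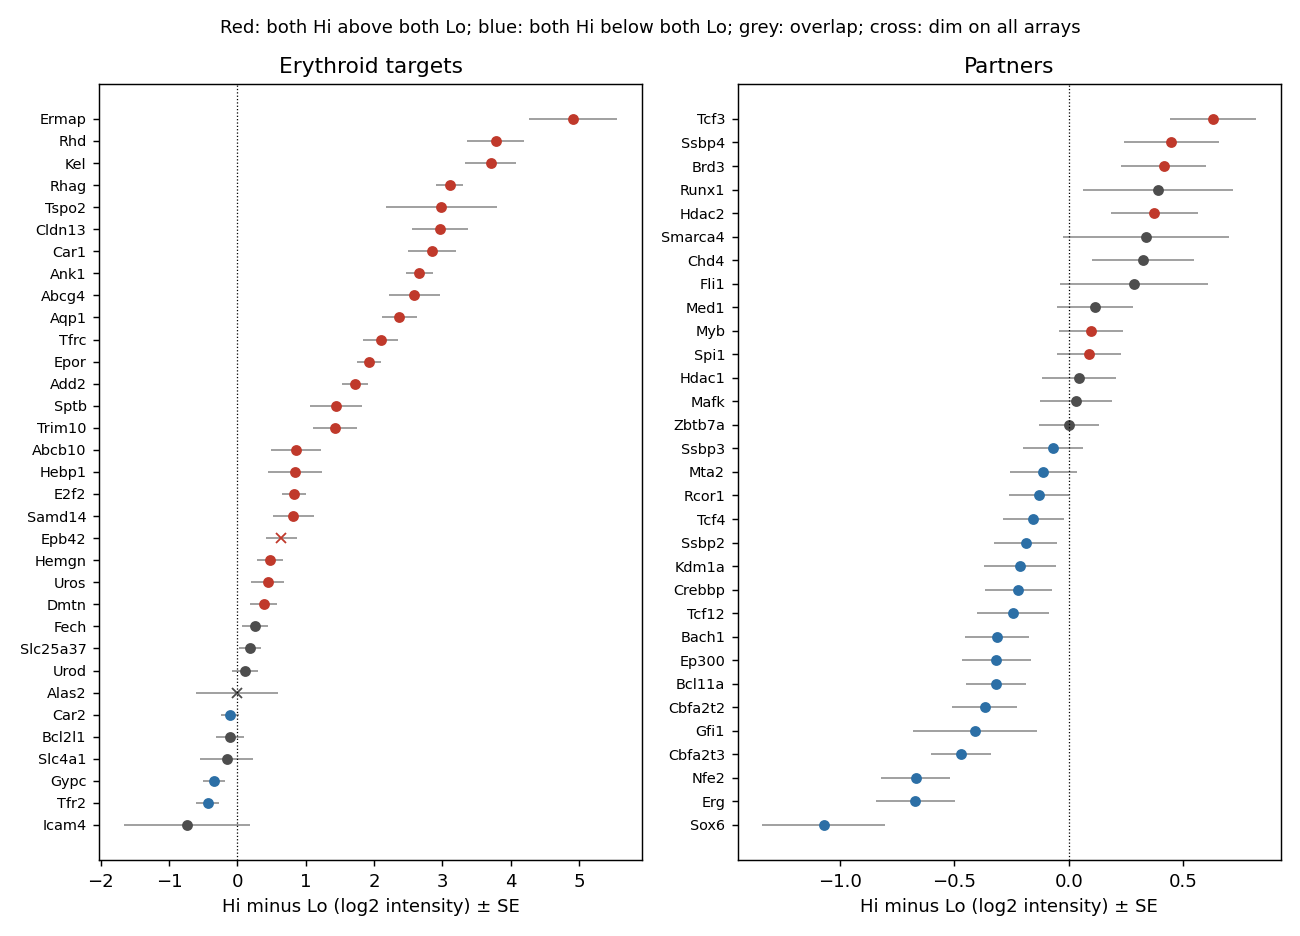
Hi minus Lo difference in log2 intensity, with its SE, for the 33 erythroid targets (left) and the 31 partners (right), each ordered by difference. Red marks genes with both Hi arrays above both Lo arrays, blue those with both below, grey those that overlap, and crosses those dim on all arrays; the targets reach 4.92, whereas the partners lie between -1.07 and 0.63.

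Partner genes, which encode proteins that bind or work with the 10 factors, had differences on both sides of 0, 14 positive and 17 negative of 31, where 9747 of 18193 genes were positive and 8445 negative. Among these partners an unadjusted p under 0.05 was reached by 1 that was higher and 4 that were lower in Hi, where 9.25% of all genes were higher and 11.0% lower, and 0 passed the adjusted p by limma. The median was -0.11, against 0.03 over all genes. The counts depended on single arrays, with 0 higher and 1 lower without Hi replicate 1 or Hi replicate 2, 4 and 4 without Lo replicate 1, and 1 and 2 without Lo replicate 2. The higher one was Tcf3, which encodes some of the E proteins that pair with TAL1, with 10.87 and 10.84 in Hi and 10.41 and 10.03 in Lo. Among partners higher without overlap, next came Ssbp4 at 0.45 ± 0.21, Brd3 at 0.41 ± 0.18 and Hdac2 at 0.37 ± 0.19 (SE). Runx1 had 0.39 ± 0.33 (SE), with overlap. The 4 lower ones were Sox6, a repressor of embryonic globin genes, at -1.07 ± 0.27, the ETS factor gene Erg at -0.67 ± 0.17, the globin regulator Nfe2 at -0.67 ± 0.15 and Cbfa2t3, a corepressor of the TAL1 complex, at -0.47 ± 0.13 (SE; limma adjusted p from 0.16 to 0.203). Myb stood at 0.10 ± 0.14 and Spi1, whose protein opposes GATA1, at 0.09 ± 0.14 (SE). Unlike Tcf3, the E protein genes Tcf12 and Tcf4 were lower in Hi without overlap. Their differences were -0.24 ± 0.16 and -0.15 ± 0.13 (SE; limma adjusted p = 0.497 and 0.601).

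Relatives of the members outside the list were mostly dim. Of 9 paralogues, 5 were dim on all arrays, among them Gata5, Gata6 and Tal2, and Gata4 was above the dim limit only on Hi replicate 1. The LIM-only genes Lmo4 and Lmo1 were higher in Hi, Lmo4 with 10.34 and 10.29 in Hi and 9.83 and 9.05 in Lo. Their differences of 0.88 ± 0.31 and 0.77 ± 0.17 (SE) had limma adjusted p-values of 0.269 and 0.153; without Hi replicate 2 neither reached an unadjusted p under 0.05. Lmo3 was dim on all arrays. Ldb2 went the other way, with 2.88 and 2.98 in Hi and 5.66 and 3.67 in Lo, and was above the dim limit only on Lo replicate 1.

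Marker genes of other cell types were counted in the same way, beside the shares of 9.25% higher and 11.0% lower over all genes. Beside Gata3, 7 of 13 T and innate lymphoid genes were lower in Hi at an unadjusted p under 0.05 and 0 higher, with a summed intensity of 7512 and 7121 in Hi and 10618 and 10832 in Lo. Among them Bcl11b and Cd7 had differences of -3.84 and -3.03, and of the T cell receptor complex genes Cd3d had -0.77, Cd3g -0.15 and Cd3e -0.10; 0 of the 13 were dim on all arrays. The count of 7 was 2 without Hi replicate 2, with 1 higher, 4 without Lo replicate 1 and 3 without Lo replicate 2. Beside Gata2, 10 of 14 stem cell genes were lower in Hi and 0 higher at that p. Their sums were 23908 and 24685 in Hi and 40435 and 38013 in Lo. Their median difference was -1.05, and between -1.14 and -0.99 with single arrays left out. Of 10 mast cell and basophil genes, which Gata1 and Gata2 also mark, 2 were higher, Hdc at 3.17 and Mcpt8 at 2.49. The 2 lower ones were Mitf at -0.72 and Cma1. For Cma1, dim on both Hi arrays, the Lo level exceeded the Hi limit at least 1.83-fold. The sums were 5499 and 5422 in Hi and 3157 and 3296 in Lo, and Tpsab1 was dim on all arrays. The median difference was 0.11, and between 0.04 and 0.07 with single arrays left out. Of 10 megakaryocyte genes 3 were higher and 2 lower, with sums of 8301 and 6671 in Hi and 6332 and 6550 in Lo and Gp6 dim on all arrays; the counts were 1 and 1 without Hi replicate 1, 2 and 0 without Hi replicate 2, and 2 and 1 without either Lo array. All 8 granulocyte and monocyte genes had positive differences and 5 were higher at that p, with sums of 56234 and 52361 in Hi and 23874 and 23159 in Lo. Of 7 B cell genes 1 was higher, and 2 without either Lo array, with Pax5 dim on all arrays. Of 6 endothelial genes 1 was higher and 2 lower, with Cdh5 dim on all arrays; the lower ones were 3 without Hi replicate 1 and 1 without each of the other arrays. The part of these cell types in the values of the 10 genes was not tested.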

How the data were processed

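Marrow LSK cells were sorted by c-Myc-eGFP level, and 5 ng of total RNA was amplified and labelled, per the labels' protocols. The authors deposited linear intensity values made with RMA, per the submitters' processing notes; the version is not given in the sources used here. RMA gives all arrays like distributions, which hides any difference in RNA content between the cells. Intensities were log2-transformed here. Of 45101 probe sets, 64 controls were left out. Names came from the platform annotation (34945 probe sets with 1 symbol, 932 with several, 9160 with none); genes it does not name were not analysed here. A gene was represented by its probe set with the highest mean.

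Hi minus Lo was fitted over all probe sets with limma 3.58.1 in R 4.3.3 (constant prior variance, no block, two-sided) with Benjamini-Hochberg adjustment and 2 residual degrees of freedom. The SE is moderated. The dim limit on an array is the brightest of 27 bacterial controls without added transcript; folds of genes dim in 1 group are bounds against it. The number of arrays limits the precision. The fit was tested on simulated data. Text names all members, the 4 partners and 4 targets per direction with the largest difference among those without overlap, and the 3 nearest profiles of Gata1, Gata2 and Klf1; other genes were chosen after their values were seen. The members and lists were chosen with earlier results of these data known. Alternatives were median shift, cyclic loess, an offset of 16, a dim filter, a variance trend, a replicate block, leaving out each array, gene means and, added after seeing the data, 1 probe set per gene and the list counts without each array.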

Additional observations from a re-analysis of the deposited data

How the results depend on the processing

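All 10 member genes kept the direction of their difference under the 12 alternatives tried, 1 of which, a fit over 1 probe set per gene, was chosen after seeing the data. Many of these could not reverse a direction. The dim filter, the variance trend, the replicate block and the fit over 1 probe set per gene leave the differences unchanged. Gene means do so for genes with 1 probe set, and leaving out an array cannot reverse groups that do not overlap. The dimmer Zfpm1 probe set, at -2.8e-05, turned to 0.095 with arrays shifted to 1 median, 0.023 with cyclic loess and 0.00022 with the offset, and ran from -0.14 to 0.14 over single arrays left out. At an adjusted p under 0.05, 1 member gene was called lower with gene means and 1 with the fit over 1 probe set per gene. Each was Gata3 (limma adjusted p = 0.0371 and 0.0486). There fewer features were tested, and the moderated SE of Gata3 was 0.219 and 0.225, against 0.232. Over the alternatives with 2 arrays per group the limma adjusted p of Gata3 ran from 0.0371 to 0.193. Its difference ran from -2.23 to -1.69 with single arrays left out. At an unadjusted p under 0.05 the lower member genes were 5 with the variance trend, against 3, and with single arrays left out they were 1 to 2, and the lower member probe sets 1 to 3, against 4. The higher ones were 2 to 3. With arrays left out, a lone array is assumed to vary like the others.

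The replicate numbers are shared by Hi and Lo, but nothing in the labels pairs them, and the differences between replicates correlated at 0.07 across probe sets. Of the 12 member probe sets, 9 were higher on replicate 2 in Lo and 9 in Hi, 8 of them in both groups. Of all probe sets 52.4% were so placed in Lo and 50.9% in Hi. A shared replicate effect on the members was not tested. With a replicate block 0 probe sets were called, Gata1 and Gata3 had a limma adjusted p of 0.193 each, and no call of a member changed. The 2 arrays per group limit every value here.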
